A study of Mus musculus with 8 samples.

Results

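Gfi1, Myb, the RUNX proteins Runx1, Runx2 and Runx3, and their common partner Cbfb are transcription factors of blood cell formation, and their RNA was followed here across 4 groups of mouse granulocyte progenitors (GPs). The members were all non-control probes whose accession belongs to one of these 6 genes, which gave 9 of the 55681 probes on the array. Gfi1, Myb and Cbfb have 1 probe each, and Runx1, Runx2 and Runx3 have 2 each. A probe entered the tests if some group had it well above background on each of its arrays. Of the 9 probes 8 did, and all 6 genes were among the 14105 named genes tested, each represented by its brightest probe.

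Gfi1 is a zinc-finger repressor whose SNAG domain recruits the histone demethylase Kdm1a and its CoREST partners, and it is required for neutrophil formation in mice. Myb is an activator needed for definitive blood formation and for the expression of granule protein genes in immature myeloid cells. Runx1, Runx2 and Runx3 bind DNA through a shared Runt domain, and Cbfb, which does not itself contact DNA, strengthens that binding. Runx1 is required for the emergence of blood stem cells, Runx2 is best known from bone and Runx3 from T cells, NK cells and sensory neurons.

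Bone marrow was sorted into Flt3+ GPs and Flt3- GPs from wild-type (WT) mice and from mice deficient in Irf8 (Irf8KO), the transcription factor of monocyte and dendritic cell development. Flt3 is a cytokine receptor of early progenitors. The groups were Irf8KO Flt3+ GPs, WT Flt3+ GPs, Irf8KO Flt3- GPs and WT Flt3- GPs, with 2 arrays each, 1 from each of 2 independent experiments, and the cells were primary and received no treatment named in the labels. The labels give neither the form of the Irf8 allele nor age, strain or the number of animals behind an array, so p-values measure the spread between these samples.

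Levels are log2 signal relative to the 75th percentile of the same array, and a difference of 1 is a 2-fold change. Levels of different probes are not compared, because probes differ in brightness for the same amount of RNA. The arrays carried between 54.9% and 60.1% of spots well above background, and the 2 arrays of a group correlated at 0.996 to 0.998 across genes. Irf8 itself was 0.84 higher in Flt3+ GPs and 0.72 higher in Flt3- GPs on the arrays labelled Irf8KO than on those labelled WT (limma, adjusted p = 0.000226 and 0.000399). Where the probe lies relative to the deletion was not looked up, so it does not check the labels, and the directions below are those of the labels. Flt3 was 3.60 higher in Flt3+ than in Flt3- GPs on Irf8KO arrays and 4.54 higher on WT arrays. All 8 granulocyte progenitor markers lay well above background on every array, with a summed signal (in multiples of the 75th percentile) of 1213 to 1226 in Irf8KO Flt3+ GPs, 699 to 781 in WT Flt3+ GPs, 2535 to 2773 in Irf8KO Flt3- GPs and 2186 to 2321 in WT Flt3- GPs. All 8 arrays shared 1 slide and 1 scan, with Irf8KO on row 2 and WT on row 1, and with Flt3+ and Flt3- in different columns, so that slide position and group cannot be told apart. In bulk samples such as these, fewer cells of a type and less RNA per cell cannot be told apart either.

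Start-site windows of Gfi1, Myb and Runx1 are shown because these genes moved with the Flt3+ and Flt3- sort in both genotypes, Gfi1 and Myb down and Runx1 up in Flt3+ GPs. They are RefSeq sequences on GRCm38.p6, 250 bases before to 50 after a transcript start, on the gene's own strand. All 6 genes matched the table by symbol, with 9 windows. Capitals mark matches on either strand to the letters TGTGGT (RUNX), AACNG (Myb) or AAATC (Gfi1).
Gfi1, upstream window, chr5:107725756-107726055, minus strand: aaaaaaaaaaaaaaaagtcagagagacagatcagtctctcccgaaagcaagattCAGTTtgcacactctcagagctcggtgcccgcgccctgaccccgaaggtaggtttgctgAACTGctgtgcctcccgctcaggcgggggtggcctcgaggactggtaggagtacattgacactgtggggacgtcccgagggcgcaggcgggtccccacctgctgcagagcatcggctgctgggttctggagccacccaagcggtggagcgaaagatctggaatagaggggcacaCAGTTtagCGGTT
Gfi1, downstream window, chr5:107724294-107724593, minus strand: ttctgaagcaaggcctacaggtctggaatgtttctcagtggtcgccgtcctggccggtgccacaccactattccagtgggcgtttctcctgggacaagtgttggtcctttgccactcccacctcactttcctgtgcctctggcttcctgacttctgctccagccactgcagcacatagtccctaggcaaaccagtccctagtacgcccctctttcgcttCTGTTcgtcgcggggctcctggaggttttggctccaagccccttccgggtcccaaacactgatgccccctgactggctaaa
Myb, chr10:21160935-21161234, minus strand: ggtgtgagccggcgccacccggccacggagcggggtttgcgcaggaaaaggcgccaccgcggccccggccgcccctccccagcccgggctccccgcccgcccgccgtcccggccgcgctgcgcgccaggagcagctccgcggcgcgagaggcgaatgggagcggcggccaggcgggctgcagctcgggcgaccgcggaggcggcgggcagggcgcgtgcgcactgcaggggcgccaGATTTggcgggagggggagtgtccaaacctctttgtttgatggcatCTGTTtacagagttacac
Runx1, distal window, chr16:92826025-92826324, minus strand: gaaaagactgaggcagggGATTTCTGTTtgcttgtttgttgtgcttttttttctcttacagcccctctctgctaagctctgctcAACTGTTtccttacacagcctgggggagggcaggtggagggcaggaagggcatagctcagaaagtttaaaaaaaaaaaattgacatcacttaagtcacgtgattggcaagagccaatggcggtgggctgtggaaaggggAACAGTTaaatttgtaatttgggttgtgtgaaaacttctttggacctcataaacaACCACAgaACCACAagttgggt

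The upstream Gfi1 window held 4 Myb matches and the downstream window 1, with no RUNX or Gfi1 match in either. The Myb window held 1 Myb match and 1 Gfi1 match. The distal Runx1 window held 2 RUNX matches, 5 Myb matches, some overlapping each other, and 1 Gfi1 match, whereas the proximal Runx1 window at chr16:92697280-92697579 held none of the 3 motifs. No match to one motif overlapped a match to another. Of the 9 windows of these genes, 3 held RUNX letters, 4 Myb letters and 2 Gfi1 letters, against 16.8%, 80.3% and 35.9% of all 32851 windows of this length. A match describes letters and not a bound site.

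Gfi1 had the widest range of the 6 genes and was lower in Flt3+ than in Flt3- GPs in both genotypes. Its levels were 3.76 and 3.88 in Irf8KO Flt3+ GPs, 3.35 and 3.38 in WT Flt3+ GPs, 5.53 and 5.42 in Irf8KO Flt3- GPs, and 5.17 and 5.10 in WT Flt3- GPs. The groups were ordered, from the highest mean, as Irf8KO Flt3-, WT Flt3-, Irf8KO Flt3+ and WT Flt3+, with a span of 2.11 between the extremes, and no pair of groups overlapped. Groups of 2 arrays did not overlap in 76.4% of all genes between Irf8KO populations, 80.3% between WT populations, 66.7% between genotypes in Flt3+ GPs and 75.1% in Flt3- GPs. In the Irf8KO arrays Gfi1 was 3.15-fold lower in Flt3+ GPs (log2 difference -1.66, SE 0.066, limma adjusted p = 1.45e-05). In the WT arrays it was 3.41-fold lower (-1.77, SE 0.066, adjusted p = 9.15e-06), a larger difference than that of 93.9% of the genes tested. Under the 19 alternatives tried, the difference stayed between -1.72 and -1.57 in Irf8KO and between -1.81 and -1.49 in WT, past the threshold each time.

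Gfi1 was also the member that rose in both populations of the arrays labelled Irf8KO. In Flt3+ GPs its mean was 3.82 ± 0.09 in Irf8KO and 3.36 ± 0.02 in WT (SD, n = 2 each), a 1.37-fold increase (0.46, SE 0.066, limma adjusted p = 0.00547). In Flt3- GPs the means were 5.48 ± 0.08 in Irf8KO and 5.13 ± 0.05 in WT, a 1.27-fold increase (0.34, SE 0.066, adjusted p = 0.00902). The second call was lost without the WT Flt3- array of experiment 2, when the difference was 0.30 (adjusted p = 0.0559). The 2 genotype differences did not differ detectably, with an interaction of 0.11 (95% interval -0.12 to 0.34, adjusted p = 0.404), and under quantile normalization this small difference changed sign to -0.08. The granulocyte progenitor marker sums given above were ordered across the 4 groups as Gfi1 was. Among these markers Mpo, Elane, Prtn3 and Ctsg had this order of group means, whereas Cebpe and Kit did not. The order of Ms4a3 and Fcgr3, also on that list, is not given here. The sums of 2 lists of other cell types were also lower in Flt3+ than in Flt3- GPs in both genotypes. Erythroid, early lymphoid and stem cell marker sums, given below, ran the other way in both genotypes. The 8 eosinophil, basophil and mast cell markers summed to 5.08 and 5.34 in Irf8KO Flt3+ GPs, 11.0 and 11.7 in WT Flt3+ GPs, 63.8 and 64.1 in Irf8KO Flt3- GPs, and 136 in both WT Flt3- arrays, with Ms4a2 not well above background in Flt3+ GPs and Fcer1a not in Irf8KO. The 8 T and NK cell markers summed to 34.0 and 35.1 in Irf8KO Flt3+ GPs and 34.7 and 34.8 in WT Flt3+ GPs. In Flt3- GPs the sums were 92.5 and 94.0 in Irf8KO and 99.2 and 100.3 in WT. On each array 5 or 6 of the 8 lay well above background. Cd8a was dim throughout, and Cd3g was dim on every array except the WT Flt3+ array of experiment 1. Ncr1 was dim on every array except the Irf8KO Flt3- array of experiment 1, where Klrb1c was dim instead. The 9 monocyte and dendritic cell markers summed to 355 and 363 in Irf8KO Flt3+ GPs and 288 and 259 in WT Flt3+ GPs. In Flt3- GPs they summed to 384 and 367 in Irf8KO and 254 and 269 in WT. Early lymphoid sums were likewise higher in Irf8KO in both populations. Erythroid, platelet, stem cell and eosinophil, basophil and mast cell sums were lower in Irf8KO in both. The part of these markers in the Gfi1 differences was not tested.

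**Figure D1:**
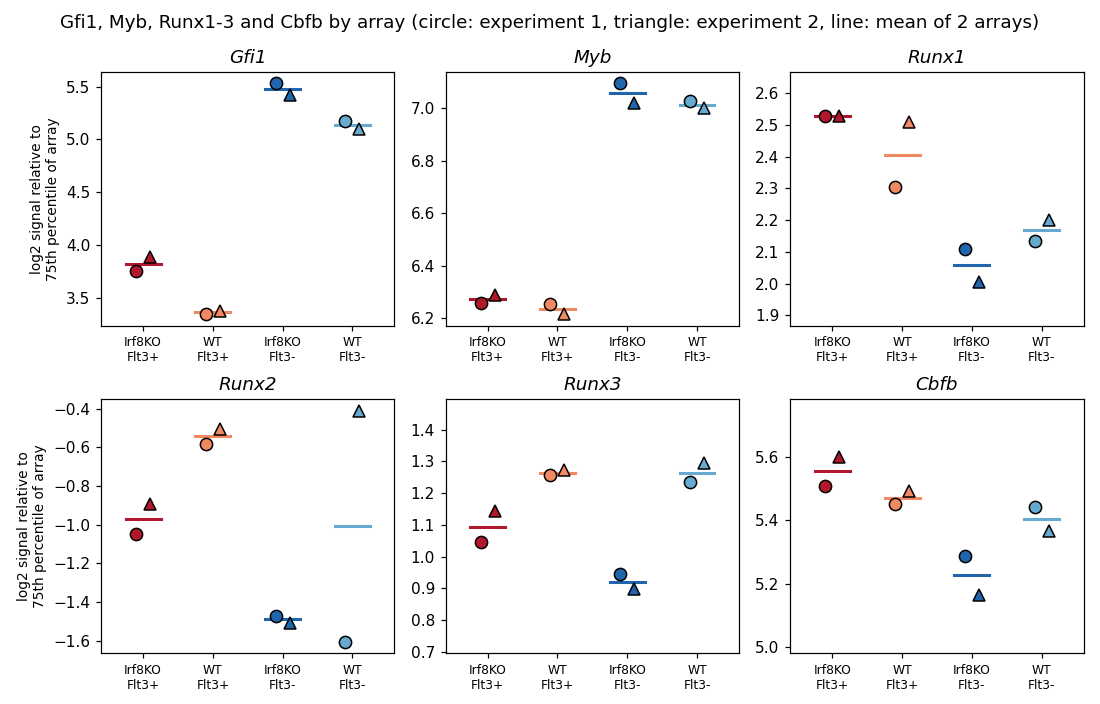
Log2 signal relative to the array's 75th percentile for the probe that stands for each of the 6 genes, by group, with circles for experiment 1, triangles for experiment 2 and lines for the mean of 2 arrays; each panel has its own vertical scale. Gfi1 (means 3.82, 3.36, 5.48 and 5.13 from left to right) and Myb separate the populations, and the 2 WT Flt3- arrays of Runx2 lie far apart.

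Genes whose profiles over the 8 arrays lay closest to that of Gfi1 were Plpp5, a lipid phosphatase, with a root mean square distance of 0.058 log2 units, Dnajc12, a co-chaperone, at 0.077, and Agps, an enzyme of ether lipid synthesis, at 0.088. Plpp5 had 1.79 and 1.80 in Irf8KO Flt3+ GPs, 1.37 and 1.41 in WT Flt3+ GPs, 3.56 and 3.50 in Irf8KO Flt3- GPs, and 3.08 and 3.04 in WT Flt3- GPs. Gfi1 was the member with group means spanning at least 1 log2 unit, and likeness was computed for it alone.

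Gfi1b, the paralog of Gfi1 that acts in red cell and platelet precursors, ran the other way between populations. Its levels were 1.70 and 1.67 in Irf8KO Flt3+ GPs, 1.60 and 1.61 in WT Flt3+ GPs, 0.76 and 0.64 in Irf8KO Flt3- GPs, and 1.35 and 1.25 in WT Flt3- GPs. It was 0.99 higher in Flt3+ GPs in Irf8KO (SE 0.059, limma adjusted p = 6.67e-05) and 0.30 higher in WT (adjusted p = 0.00579). In Flt3- GPs it was 0.60 lower in Irf8KO than in WT (log2 difference -0.60, adjusted p = 0.00102), and in Flt3+ GPs the difference was 0.08 (adjusted p = 0.342). The summed signal of 7 erythroid markers was 1.68 in both Irf8KO Flt3+ arrays, 18.8 and 19.0 in WT Flt3+ GPs, 0.87 and 0.85 in Irf8KO Flt3- GPs, and 6.98 and 7.02 in WT Flt3- GPs. Their part in the Gfi1b differences was not tested.

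Of 14 partners and relatives of Gfi1, 13 were measured, Zbtb17 not being well above background. In Irf8KO, 3 were higher and 3 lower in Flt3+ than in Flt3- GPs, with a median of 0.11 against -0.03 over all genes, and quantile normalization raised the number called to 11. In WT, 2 were higher and 6 lower, with a median of -0.01 against -0.12 over all genes. Of all genes 45.8% were called in Irf8KO and 61.9% in WT, so the number of partners called was near the background in both. Among them Rcor2, a CoREST protein, was 2.06 higher in Irf8KO and 1.50 higher in WT, and Ajuba, a LIM protein that binds SNAG repressors, was lower in Irf8KO (-1.43) and in WT (-1.82). Between genotypes, 2 were higher and 1 lower in Irf8KO in Flt3+ GPs, where the 3 calls became 1 without the Irf8KO Flt3+ array of experiment 2, and 1 was higher and 5 lower in Flt3- GPs, where the 6 calls became 3 without the WT Flt3- array of experiment 2. Over all genes 16.5% were called higher and 12.5% lower between genotypes in Flt3+ GPs, and 16.5% higher and 27.2% lower in Flt3- GPs. Insm1, another SNAG-domain protein, had -2.03 and -1.95 in Irf8KO Flt3+ GPs and was not well above background in WT Flt3+ GPs. That gives at least 9.37-fold more in Irf8KO. It entered the tests only through Irf8KO Flt3+ GPs, where it was high, so its bound is a description, and it is 1 of the 3 genes counted as higher between Irf8KO populations and 1 of the 2 counted as higher in Irf8KO Flt3+ GPs. For such a bound the dim arrays were given the lowest signal still well above background in place of their own.

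All 18 genes listed as repressed by Gfi1 in earlier work were measured. In Irf8KO, 12 were higher and 2 lower in Flt3+ GPs, where Gfi1 was low, with a median of 0.33. In WT, 12 were higher and 3 lower, with a median of 0.46. Over all genes the medians were -0.03 and -0.12, and 22.1% were called higher and 23.6% lower in Irf8KO and 22.6% higher and 39.2% lower in WT. Egr1, an immediate early factor, was 2.20 higher in WT Flt3+ GPs and Socs3, an inhibitor of cytokine signalling, 1.80 higher, while Id1, an inhibitor of E proteins, went the other way at -1.77 in Irf8KO and -2.57 in WT. Irf8 is itself on this list and was 1.09 higher in Flt3+ GPs in Irf8KO and 0.97 higher in WT.

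Between genotypes the list held calls in both directions. In Flt3+ GPs 6 genes were higher and 4 lower in Irf8KO, with a median of 0.06 against 0.04 over all genes. In Flt3- GPs 8 were higher and 4 lower, with a median of 0.26 against -0.04. Irf8, the targeted gene, is among the genes counted as higher in both populations. Of all genes, 16.5% were called higher and 12.5% lower in Flt3+ GPs, and 16.5% higher and 27.2% lower in Flt3- GPs. Egr2, a factor of the monocyte programme, was 1.59 higher in Irf8KO in Flt3+ GPs and 1.25 higher in Flt3- GPs. Cdkn1a, a cyclin-dependent kinase inhibitor, was 1.27 and 0.94 higher in the same order by its brightest probe (limma, adjusted p = 4.95e-05 and 0.000191). The mean over all probes of Cdkn1a, with dim probes not left out, gave 0.61 (adjusted p = 0.069) and -0.26 (adjusted p = 0.336).

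Myb, like Gfi1, was lower in Flt3+ GPs in both genotypes, and its level showed no detectable dependence on genotype. Its levels were 6.26 and 6.29 in Irf8KO Flt3+ GPs, 6.25 and 6.22 in WT Flt3+ GPs, 7.09 and 7.02 in Irf8KO Flt3- GPs, and 7.03 and 7.00 in WT Flt3- GPs. Each Flt3- array lay above every Flt3+ array. Myb was 1.72-fold lower in Flt3+ GPs in Irf8KO (-0.78, SE 0.045, limma adjusted p = 5.6e-05) and in WT (-0.78, SE 0.045, adjusted p = 4.47e-05). The interaction was -0.00 (95% interval -0.16 to 0.15, adjusted p = 0.97). Quantile normalization gave the smallest size of the difference, -0.56 in Irf8KO and -0.43 in WT, both past the threshold.

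Between genotypes Myb differed by 0.04 in Flt3+ GPs (95% interval -0.07 to 0.15, limma adjusted p = 0.551) and by 0.04 in Flt3- GPs (-0.07 to 0.16, adjusted p = 0.481). The first of these changed sign under another scaling, to -0.09 with quantile normalization. Ordered by mean, the 2 Flt3- groups lay above the 2 Flt3+ groups, and within each population the genotypes did not differ past the threshold.

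The Myb paralogs behaved differently. Mybl2, a cell cycle factor, had 3.82 and 3.78 in Irf8KO Flt3+ GPs, 3.61 and 3.65 in WT Flt3+ GPs, 3.70 and 3.78 in Irf8KO Flt3- GPs, and 4.62 and 4.56 in WT Flt3- GPs, so that WT Flt3- GPs stood above the other groups. In Flt3- GPs it was 1.80-fold lower in Irf8KO than in WT (-0.85, SE 0.048, limma adjusted p = 0.000226), and in Flt3+ GPs it was 0.17 higher (adjusted p = 0.0483). The latter call was lost without any 1 of the 8 arrays and with the block (adjusted p = 0.0677). Quantile normalization (0.133), both other percentile scalings (0.0902 and 0.0654), normexp (0.128) and no filter on dim probes (0.112) also ended it. So did the mean over probes (0.143), every probe as its own row (0.0897) and only the 2 groups (0.108). Between populations Mybl2 was lower in WT Flt3+ GPs (-0.96, adjusted p = 2.72e-05) and differed by 0.06 in Irf8KO (adjusted p = 0.339). Mybl1, known from testis and germinal centre cells, was near background, with 1 WT Flt3- array at -1.16 and the other at -5.88, and no difference in it was called.

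Of 11 Myb relatives and partners, 10 were measured, with no named probe for Kmt2a. In Irf8KO, 1 was higher and 1 lower in Flt3+ GPs (median -0.03, equal to that of all genes), and in WT 1 was higher and 4 lower (median -0.15 against -0.12), where 45.8% and 61.9% of all genes were called. Cebpb, a factor that acts with Myb at granule genes, was lower in Flt3+ GPs in Irf8KO (-0.75) and in WT (-1.35), and was 1.04 higher in Irf8KO than in WT Flt3+ GPs and 0.44 higher in Flt3- GPs. Psip1, a chromatin adaptor, was 0.61 higher in Flt3+ GPs in Irf8KO, and in Flt3- GPs it was lower in Irf8KO than in WT (-0.55). The genotype counts of this list stand beside 16.5% of all genes called higher and 12.5% lower in Flt3+ GPs. In Flt3- GPs these shares were 16.5% and 27.2%. The genotype counts were 3 higher and 0 lower in Flt3+ GPs, which became 1 called without either Irf8KO Flt3+ array, either Irf8KO Flt3- array or either WT Flt3- array. In Flt3- GPs they were 1 higher and 2 lower, and 5 genes were called with the experiment number as a block or without either WT Flt3+ array.

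All 16 genes listed as Myb targets were measured, a list that includes Gfi1. In Irf8KO, 8 were higher and 6 lower in Flt3+ GPs, and in WT 4 were higher and 8 lower, with medians of 0.12 and -0.08 against -0.03 and -0.12 over all genes. Of all genes 45.8% were called in Irf8KO (22.1% higher and 23.6% lower) and 61.9% in WT (22.6% higher and 39.2% lower). The neutrophil serine protease genes Elane and Prtn3 had the largest falls, Elane at -2.83 in Irf8KO and -4.68 in WT, and Prtn3 at -1.77 and -2.78. Rag2, a recombinase subunit of lymphoid cells, was 2.75 and 2.28 higher in the same order. Between genotypes, 8 were higher and 5 lower in Irf8KO in Flt3+ GPs and 5 were higher and 7 lower in Flt3- GPs. Over all genes 16.5% were called higher and 12.5% lower in Flt3+ GPs, and 16.5% higher and 27.2% lower in Flt3- GPs. The list medians were 0.24 against 0.04 over all genes in Flt3+ GPs and 0.01 against -0.04 in Flt3- GPs. The early lymphoid markers summed to 232 and 252 in Irf8KO Flt3+ GPs, 116 and 124 in WT Flt3+ GPs, 1.12 and 1.20 in Irf8KO Flt3- GPs, and 0.79 in both WT Flt3- arrays, with Rag1, Il7r and Lax1 not well above background in Flt3- GPs. Rag2 is 1 of these 5 markers, and their part in the other differences was not tested.

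Runx1, unlike Gfi1 and Myb, was higher in Flt3+ than in Flt3- GPs. Its levels were 2.53 and 2.53 in Irf8KO Flt3+ GPs, 2.30 and 2.51 in WT Flt3+ GPs, 2.11 and 2.01 in Irf8KO Flt3- GPs, and 2.14 and 2.20 in WT Flt3- GPs. Every Flt3+ array lay above every Flt3- array. In Irf8KO the difference was 1.39-fold (0.47, SE 0.079, limma adjusted p = 0.00453), and it stayed past the threshold under all alternatives tried.

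In WT the Runx1 difference was smaller, 1.18-fold (0.24, SE 0.079, limma adjusted p = 0.0411), and close to the threshold. With the experiment number as a block its adjusted p was 0.0564, and the call was also lost with every probe as its own row (0.0619), with no filter on dim probes (0.0841) and with only the WT groups fitted (0.0978). Leaving out any array except the WT Flt3+ array of experiment 1 ended the call. Without the WT Flt3+ array of experiment 2 the difference was 0.14 (adjusted p = 0.138), and without the WT Flt3- array of experiment 1 or 2 it was 0.21 or 0.27 (adjusted p = 0.162 or 0.0852). Without any 1 of the 4 Irf8KO arrays it stayed at 0.24, with adjusted p between 0.053 and 0.0701. The second Runx1 probe, for another transcript of the gene, gave 0.34 in Irf8KO (adjusted p over 32663 probes 0.0125) and 0.21 in WT (0.05).

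Runx1 differed by 0.12 between genotypes in Flt3+ GPs (95% interval -0.07 to 0.32, limma adjusted p = 0.3) and by -0.11 in Flt3- GPs (-0.31 to 0.09, adjusted p = 0.31). The interaction of 0.23 had an adjusted p of 0.173, and without the WT Flt3+ array of experiment 2 it was 0.33 (adjusted p = 0.0424).

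Runx3 was the RUNX gene with a called genotype difference. Its levels were 1.05 and 1.14 in Irf8KO Flt3+ GPs, 1.26 and 1.27 in WT Flt3+ GPs, 0.95 and 0.90 in Irf8KO Flt3- GPs, and 1.24 and 1.30 in WT Flt3- GPs. All 4 Irf8KO arrays lay below all 4 WT arrays. In Flt3- GPs Runx3 was 1.27-fold lower in Irf8KO (-0.34, SE 0.051, limma adjusted p = 0.00379), and its other probe gave -0.41 (adjusted p over all probes 0.00798). In Flt3+ GPs the difference was -0.17 (95% interval -0.30 to -0.04, adjusted p = 0.0568), just outside the threshold. Of the alternatives 6 placed it inside, among them quantile normalization (-0.19, adjusted p = 0.0391) and the mean of both probes (-0.15, adjusted p = 0.0318). The other probe gave -0.13 (adjusted p over all probes 0.228). With 1 array left out, the difference ranged from -0.22 to -0.12 and was not called.

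Between populations Runx3 was 0.17 higher in Flt3+ GPs in Irf8KO (SE 0.051, limma adjusted p = 0.0375). This call was lost without any array except the Irf8KO Flt3+ array of experiment 1, with values from 0.12 without the Irf8KO Flt3+ array of experiment 2 (adjusted p = 0.177) through 0.15 and 0.20 without the Irf8KO Flt3- array of experiment 2 or 1 (0.147 and 0.0745). Without 1 of the 4 WT arrays it stayed at 0.17 with adjusted p of 0.0515 or 0.0644. It was also lost with every probe as its own row (adjusted p = 0.0675), where the other Runx3 probe gave 0.25 (adjusted p = 0.0336). No filter on dim probes (0.0853), normexp (0.0575) and fitting only the Irf8KO groups (0.0872) ended the call too. In WT no difference was detected (-0.00, 95% interval -0.13 to 0.13, adjusted p = 0.993), and the value was 0.15 (adjusted p = 0.0314) when arrays were scaled on probes well above background on all 8. The interaction was 0.17 (adjusted p = 0.126).

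Runx2 had the largest spread between the 2 arrays of a group among the 6 genes, with an SD of 0.845 in WT Flt3- GPs. Its brighter probe had -1.05 and -0.89 in Irf8KO Flt3+ GPs, -0.58 and -0.51 in WT Flt3+ GPs, -1.47 and -1.51 in Irf8KO Flt3- GPs, and -1.61 and -0.41 in WT Flt3- GPs. The 2 WT Flt3- arrays thus held both the lowest and the highest of the 8 values. All 8 values were well above background. The second probe was well above background on 1 of 8 arrays and gave no usable level.

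No Runx2 difference was called, the SE being 0.36. It was 0.52 between populations in Irf8KO (95% interval -0.36 to 1.40, limma adjusted p = 0.283) and 0.46 in WT (-0.42 to 1.35, adjusted p = 0.304). Between genotypes it was -0.43 in Flt3+ GPs (adjusted p = 0.413) and -0.48 in Flt3- GPs (adjusted p = 0.324). Without either WT Flt3- array, the SE was 0.072 for the Irf8KO populations and for the genotypes in Flt3+ GPs, and both values were called (adjusted p = 0.00407 and 0.0167). Without the WT Flt3- array of experiment 1, the WT population difference was -0.13 and the genotype difference in Flt3- GPs -1.08 (adjusted p = 0.00332). Without that of experiment 2 they were 1.06 (adjusted p = 0.000745) and 0.12. The interaction, 0.06 with all arrays, was 0.65 and -0.54 in these cases (adjusted p = 0.0262 and 0.0381).

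**Figure D2:**
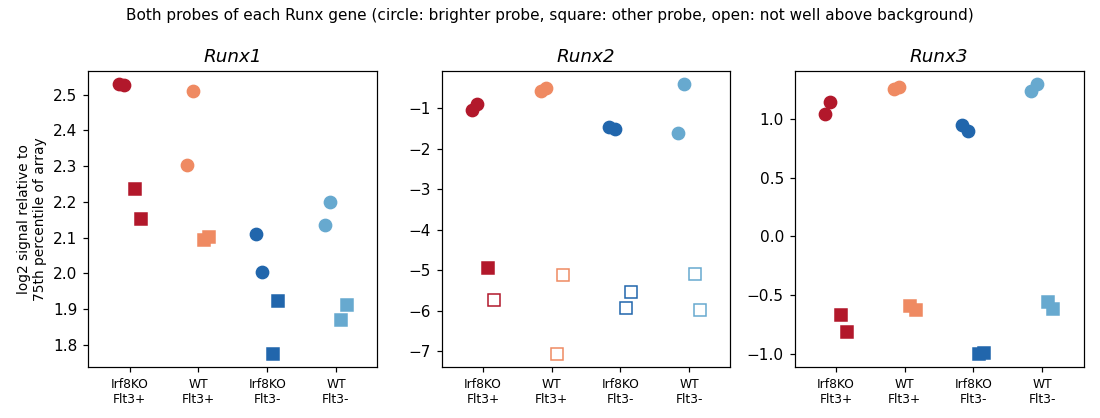
Log2 signal relative to the array's 75th percentile for both probes of Runx1, Runx2 and Runx3, by group and array; circles are the brighter probe, squares the other, and open squares were not well above background. Both Runx1 probes are higher in Flt3+ GPs, both Runx3 probes are lowest in Irf8KO Flt3- GPs, and the second Runx2 probe is filled on 1 of 8 arrays.

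Cbfb, the shared partner, was higher in Flt3+ GPs in Irf8KO. Its levels were 5.51 and 5.60 in Irf8KO Flt3+ GPs, 5.45 and 5.49 in WT Flt3+ GPs, 5.29 and 5.17 in Irf8KO Flt3- GPs, and 5.44 and 5.37 in WT Flt3- GPs. The Irf8KO Flt3- arrays lay below all others and the Irf8KO Flt3+ arrays above all others. In Irf8KO the population difference was 1.25-fold (0.33, SE 0.063, limma adjusted p = 0.00762), and in WT it was 0.07 (95% interval -0.09 to 0.22, adjusted p = 0.39). The WT value was called under 2 other scalings, at 0.43 with quantile normalization (adjusted p = 0.000857) and 0.22 on probes well above background on all arrays (adjusted p = 0.0221).

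Between genotypes Cbfb differed by 0.08 in Flt3+ GPs (adjusted p = 0.369) and by -0.18 in Flt3- GPs (95% interval -0.33 to -0.02, limma adjusted p = 0.0667). The interaction was 0.26 (SE 0.089, 95% interval 0.04 to 0.48) with an adjusted p of 0.0753, and under quantile normalization it was -0.04. From the highest mean the groups were Irf8KO Flt3+, WT Flt3+, WT Flt3- and Irf8KO Flt3-, and no neighbours in that order differed past the threshold.

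**Figure D3:**
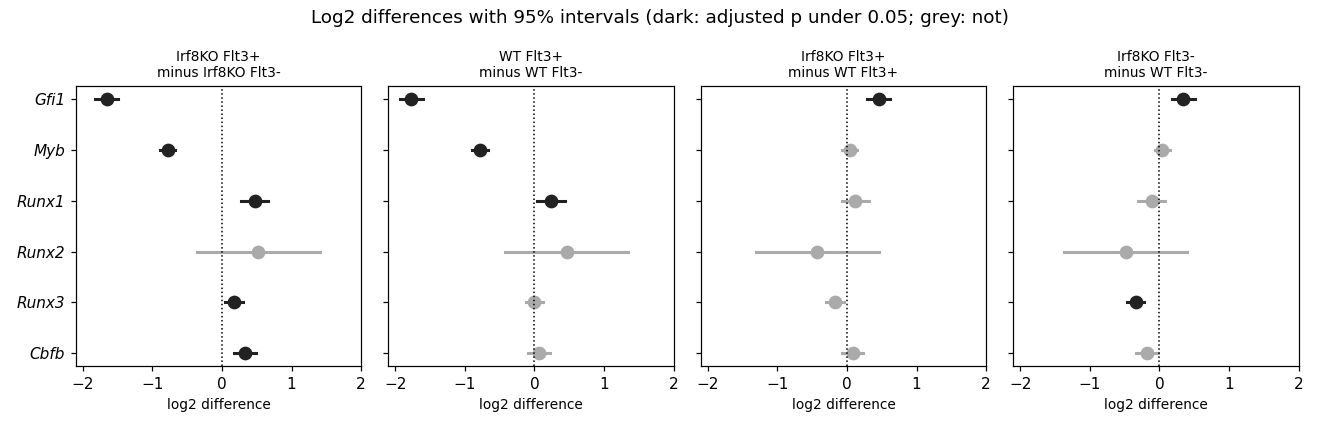
Log2 differences of the 6 genes with 95% intervals from limma in 4 comparisons, Flt3+ minus Flt3- in Irf8KO and in WT and Irf8KO minus WT in Flt3+ and in Flt3- GPs; dark points passed the threshold and grey points did not. Gfi1 and Myb lie left of 0 in both population panels, Gfi1 lies right of 0 in both genotype panels, and the Runx2 intervals are the widest (SE 0.36).

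The members' calls are set here beside the share of all genes called. Between populations 5 of 6 members were called in Irf8KO (3 higher and 2 lower in Flt3+ GPs), where 45.8% of genes were called. In WT 3 of 6 were called (1 higher and 2 lower), where 61.9% of genes were. Between genotypes 1 of 6 was called in Flt3+ GPs, where 29% of genes were (16.5% higher and 12.5% lower), and 2 of 6 in Flt3- GPs (1 higher and 1 lower), where 43.6% were (16.5% higher and 27.2% lower). The number of genes called in Flt3+ GPs, 4087, was 2184 or 2002 without the Irf8KO Flt3+ array of experiment 1 or 2, and the 6156 in Flt3- GPs were 4054 without the WT Flt3- array of experiment 2. By limma 0 of the 6 members' interactions were called, and 1, that of Cbfb, was past 0.05 before adjustment. Over all genes 30.9% of interactions were called, 21.4% higher and 9.45% lower.

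The WT population comparison had a median of -0.12 over all genes, which moved to 0.04 and -0.01 under 2 other scalings. Relative to that median, the WT differences were -1.66 for Gfi1, -0.66 for Myb, 0.35 for Runx1, 0.58 for Runx2 (SE 0.36), 0.12 for Runx3 and 0.18 for Cbfb. In that comparison 3192 genes were called higher and 5534 lower, and with quantile normalization 4197 and 4121. The medians of the other 3 pairwise comparisons lay between -0.04 and 0.04.

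Of 17 Runx co-factors, 15 were measured, Runx1t1 and Wwtr1 not being well above background. In Irf8KO, 9 were higher and 0 lower in Flt3+ GPs, with a median of 0.27 against -0.03 over all genes, and the 9 calls became 5 without the Irf8KO Flt3+ array and 4 without the Irf8KO Flt3- array of experiment 2. In WT, 7 were higher and 0 lower, with a median of 0.16 against -0.12. Over all genes 22.1% were called higher and 23.6% lower in Irf8KO, and 22.6% and 39.2% in WT. Tle2, a Groucho corepressor, was 0.50 higher in Flt3+ GPs in Irf8KO and 1.75 higher in WT, and Cbfa2t3, a corepressor of the ETO family, was 0.47 and 0.73 higher in the same order. The Tle2 call in Irf8KO was lost without the Irf8KO Flt3+ array of experiment 2 or either Irf8KO Flt3- array (0.45 to 0.52). Yap1, a co-activator of the Hippo pathway, was at least 1.38-fold higher in Irf8KO (a call lost with normexp) and at least 1.50-fold higher in WT, being not well above background in Flt3- GPs. Yap1 entered the tests only through the Flt3+ groups, where it was high, and is 1 of the genes in both counts, where it supports nothing. The stem cell markers, another cell type's list, summed to 22.6 and 23.6 in Irf8KO Flt3+ GPs, 37.1 and 39.3 in WT Flt3+ GPs, 9.78 and 9.07 in Irf8KO Flt3- GPs, and 13.2 and 13.6 in WT Flt3- GPs, and their part in these differences was not tested.

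Between genotypes, 2 co-factors were higher and 3 lower in Irf8KO in Flt3+ GPs, and 4 higher and 3 lower in Flt3- GPs. Over all genes 16.5% were called higher and 12.5% lower in Flt3+ GPs, and 16.5% higher and 27.2% lower in Flt3- GPs. The list medians were -0.03 against 0.04 over all genes in Flt3+ GPs and 0.13 against -0.04 in Flt3- GPs. The 5 calls became 2 without either Irf8KO Flt3+ array. The 7 calls became 4 without the Irf8KO Flt3- array of experiment 1 or without either WT Flt3- array. Tle1, another Groucho corepressor, was lower in Irf8KO in both populations (-0.38 and -0.62), and Tle2 was lower in Flt3+ GPs (-0.70) and higher in Flt3- GPs (0.55). In Flt3+ GPs the Tle1 call was lost without either Irf8KO array (-0.39 and -0.36) or the WT array of experiment 2 (-0.30), and the Tle2 call without the Irf8KO array of experiment 1 (-0.65). In Flt3- GPs the Tle2 call was lost without the Irf8KO array of experiment 1 (0.54) or the WT array of experiment 2 (0.43).

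**Figure D4:**
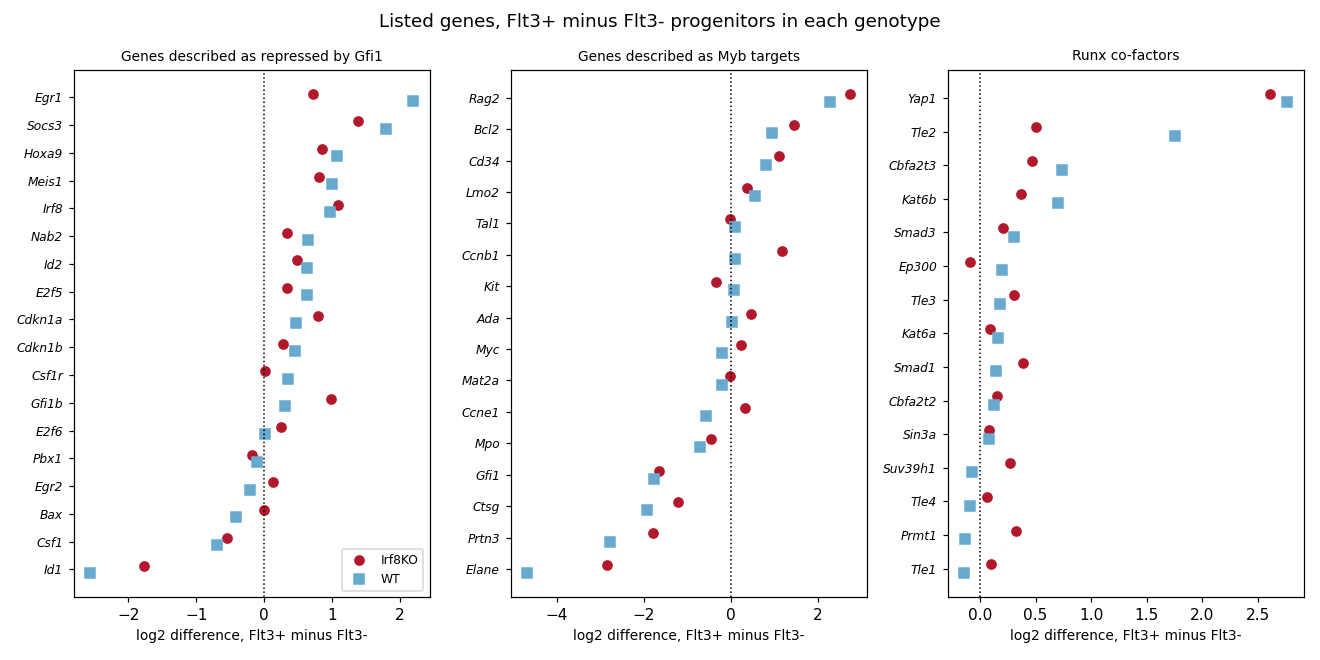
Log2 difference of Flt3+ minus Flt3- GPs for each measured gene of 3 lists (18 genes listed as repressed by Gfi1, 16 listed as Myb targets and 15 Runx co-factors), with circles for Irf8KO and squares for WT, sorted by the WT value; the fitted values of Yap1, at the top right, are not well above background in Flt3- GPs. Of the genes listed as repressed by Gfi1, 12 passed the threshold as higher in each genotype, and no Runx co-factor passed it as lower.

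Of 22 genes listed as Runx targets, 19 were measured, with Csf2 and Ifng not well above background and no named probe for Itgae. The list shares Mpo, Elane and Gfi1 with the Myb targets. In Irf8KO, 2 were higher and 10 lower in Flt3+ GPs, with a median of -0.36 against -0.03 over all genes, and in WT 4 were higher and 9 lower, with a median of -0.27 against -0.12. Of all genes 22.1% were called higher and 23.6% lower in Irf8KO, and 22.6% higher and 39.2% lower in WT. Cebpe, a factor of late granulocyte development, was -5.83 in Irf8KO and -5.98 in WT, the largest difference of the list in each. Itga2b, a platelet integrin subunit, was also lower, at -2.57 and -1.94.

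Between genotypes, 6 Runx targets were higher and 5 lower in Irf8KO in Flt3+ GPs, and 5 were higher and 5 lower in Flt3- GPs. Over all genes 16.5% were called higher and 12.5% lower in Flt3+ GPs, and 16.5% higher and 27.2% lower in Flt3- GPs. The list medians were 0.03 against 0.04 over all genes in Flt3+ GPs and 0.06 against -0.04 in Flt3- GPs. The 11 calls in Flt3+ GPs became 7 without the Irf8KO Flt3+ array of experiment 1. Pf4, a platelet chemokine, had -2.02 and -1.94 in Irf8KO Flt3+ GPs against 1.54 and 1.67 in WT Flt3+ GPs, a difference of -3.58 (SE 0.076, limma adjusted p = 5.63e-06), and in Flt3- GPs it was -1.06. Itga2b was lower in Irf8KO by -2.33 in Flt3+ and -1.69 in Flt3- GPs. The 6 megakaryocyte and platelet markers, which include Pf4 and Itga2b, summed to 4.18 and 4.49 in Irf8KO Flt3+ GPs, 13.1 and 13.8 in WT Flt3+ GPs, 4.85 and 4.88 in Irf8KO Flt3- GPs, and 7.59 and 7.53 in WT Flt3- GPs. Ppbp was not well above background on the Irf8KO arrays, and the part of these cells in the result was not tested.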

How the data were processed

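RNA of sorted cells was labelled with Cy3 and hybridised to 8 1-colour Agilent arrays. Per the file headers, the authors' intensity values were made with Agilent Feature Extraction 10.7.3.1 (background subtraction and detrending). The deposited series table held the same intensities times 1 factor per array (over 99.8% of probes within 1%), with column medians of 26.9 to 29.9 and no stated scale. Control and outlier spots (93 to 178 per array) were dropped, spots of a probe were averaged, log2 was taken and the array's 75th percentile (321 to 634) was subtracted. Accessions named 26762 of 55681 probes through RefSeq (GRCm38.p6). A probe was kept if some group had it well above background on each array, and the brightest stood for its gene. limma 3.58.1 in R 4.3.3 fitted 4 group means over 8 arrays, with Benjamini-Hochberg adjustment over 14105 genes at 0.05. The number of arrays, 2 per group, limits precision. No spot was saturated (0 per array). The fit was tested on simulated data. The normexp alternative used the median signal (offset 50), because the mean signal column was not used here. The mean over probes took in all probes of a tested gene, also dim ones. The experiment number in the titles is shared by all groups. Deviations of same-numbered arrays correlated at -0.03 to 0.12, so the block was kept as an alternative. Each list names at most its 3 largest called genes per comparison, with Gfi1b, Mybl1 and Mybl2 always. Members, lists and tests were chosen with earlier results of these data known, and the lists come from general knowledge.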

Additional observations from a re-analysis of the deposited data

Results flagged for a closer look

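The genotype difference (Irf8KO minus WT) was set against itself in Flt3+ and Flt3- GPs for 45 genes named in the text, and in 22 of them the interaction passed the threshold (limma, adjusted over all genes), none of them one of the 6 transcription factors. Most of the 45 were named because they were the largest called genes of their lists, so this count is not comparable with the 30.9% of all genes whose interaction was called. The values below are the difference in Flt3+ GPs minus that in Flt3- GPs, on the log2 scale. Mybl2 had 1.02, with 0.17 in Flt3+ and -0.85 in Flt3- GPs, and Gfi1b had 0.68, with 0.08 and -0.60. Flt3 had -0.94, with 0.08 and 1.03. Among partners of Gfi1, Rcor2 had 0.56 and Hdac2 0.38. The fitted 3.09 of Insm1, counted among the 22, is no measured size, because Insm1 was well above background in Irf8KO Flt3+ GPs alone. Among genes listed as repressed by Gfi1, Egr1 had -1.48, with -0.91 and 0.57, Id1 had 0.80 and Cdkn1a 0.33. Cebpb had 0.60 and Taf12 0.37 among the partners of Myb. Among Myb targets, Elane had 1.85, with 2.34 and 0.49, Prtn3 had 1.01, Ccne1 0.90, Bcl2 0.49 and Rag2 0.48. Among Runx co-factors, Tle2 had -1.25, with -0.70 and 0.55, Prmt1 had 0.45 and Cbfa2t3 -0.27. Among Runx targets, Pf4 had -2.52, with -3.58 and -1.06, and Itga2b had -0.63. Dnajc12, whose profile resembled that of Gfi1, had 0.31. Leaving out 1 array lost the interaction calls of Rcor2, Insm1, Hdac2, Id1, Cdkn1a, Taf12, Bcl2, Rag2, Cbfa2t3, Prmt1 and Dnajc12 in at least 1 case each. With the mean over probes the Rag2 interaction was 0.19 (adjusted p = 0.307) and that of Cdkn1a 0.86 (adjusted p = 0.0639), and under quantile normalization that of Prmt1 was 0.21 (adjusted p = 0.166).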

How the results depend on the processing

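Gfi1 and Myb between populations, Gfi1 between genotypes in Flt3+ GPs, Runx1 and Cbfb between Irf8KO populations and Runx3 between genotypes in Flt3- GPs kept direction and call under all 19 alternatives. The cause of the changes below was not tested. Of the 6 members, 2 were called between genotypes in Flt3+ GPs under 7 settings (both other percentile scalings, quantile, normexp, mean over probes, stricter filter, only the 2 groups), 5 in the WT population comparison when scaled on probes well above background on all arrays, and 1 interaction (Runx3, 0.22) with the mean over probes. Leaving out 1 array gave 1 to 2, 1 to 3 and 0 to 1 members called in Flt3+ GPs, Flt3- GPs and the interaction. Uncalled values changed sign as follows. Cbfb between genotypes in Flt3+ GPs was -0.007 (normexp) and -0.046 (quantile), and its interaction -0.042 (quantile). Myb there was -0.002 (probes well above background), -0.035 (normexp) and -0.086 (quantile), and the Gfi1 interaction was -0.08 (quantile). Runx2 averaged over probes, its dim second probe included, was 0.16 between genotypes in Flt3+ GPs and -0.047 between WT populations. The Runx2 interaction was -0.04 on probes well above background. Runx3 between WT populations was 0.027 (all spots), 0.15 (probes well above background) and 0.07 (quantile). With 1 array left out, the range was -0.041 to 0.033 for the Myb interaction, -1.08 to 0.12 for Runx2 between genotypes in Flt3- GPs, -0.13 to 1.06 for Runx2 between WT populations, -0.54 to 0.65 for its interaction and -0.03 to 0.029 for Runx3 between WT populations. Of 135 calls of other named genes 97 held throughout. Reversals among them were, with the mean over probes, Cdkn1a between WT populations (-0.008) and between genotypes in Flt3- GPs (-0.256), with normexp the Itga2b interaction (0.057), and between WT populations Ehmt2 (0.217 quantile, 0.001 probes well above background) and Men1 (0.113 and 0.004). Genes called with every probe as its own row were 15481 (WT populations), 10809 (Irf8KO populations) and 10473 (genotypes, Flt3-). Without a filter 2678 were called between genotypes in Flt3+ GPs (main 4087) and 2724 interactions (main 4354), and with only the 2 groups 2664. Leaving out 1 array gave 2002 to 3677 (genotypes, Flt3+), 4054 to 6442 (genotypes, Flt3-) and 2515 to 4416 (interactions). Splits of higher and lower calls were 1990 and 2173 under quantile normalization in Flt3+ genotypes (main 2322 and 1765), 3003 and 3293 in Flt3- genotypes on probes well above background (main 2321 and 3835), and 1976 and 1869 for interactions (quantile, main 3021 and 1333). The replicate block (experiment number) ended the Runx1 call between WT populations (0.24, adjusted p = 0.0564) and changed no other call of a member. Dim probes limit Runx2, whose second probe was well above background on 1 of 8 arrays.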
